A study of Drosophila melanogaster with 18 samples.

Results

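ChIPCRM2847 is a Drosophila enhancer that, according to the study, lies in an intron of InR, the insulin receptor gene. InR is on chromosome arm 3R. The enhancer was measured by quantitative enhancer-FACS-Seq (QeFS) as a wildtype element and as mutants whose sites for Deaf1 (D), Schlank (S) and CG12236-PB (1) were changed in combination. The reporters described here are all tags assigned to a ChIPCRM2847 construct, 24 tags of 312 in the whole series, and they belonged to 7 of the 93 constructs. The design listed 8 versions of this enhancer. No tag of ChIPCRM2847-S, with only the Schlank site changed, was present in the files used here, which left 9 of the 12 designed steps that change 1 motif on a given background and 3 of the 6 pairwise interactions.

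In QeFS, a pool of flies was made in which each fly carried an enhancer-reporter at the attP40 landing site, with a short degenerate tag in the reporter transcript. Males of the pool were crossed to virgin females that expressed the rat surface protein CD2 under the control of either a twi or a Mef2 enhancer (twi:CD2 and mef2[IE-D5]:CD2). Embryos were laid over 2.25 h and aged 11 h at 18 °C, and live cells were sorted on CD2. The twi:CD2+ cells, which were positive for CD2 under the mesodermal twi driver, gave 3 collections, each with an RNA and a DNA library. The mef2:CD2- cells, which lacked CD2 under the Mef2 enhancer, gave 6 collections, with replicates 1 to 3 from a first week and 4 to 6 from a second. They served the authors as a proxy for the whole embryo because few cells were removed. Neither population is a single cell type, and the files hold reporter tags only, so the sorted cells could not be checked against endogenous marker genes.

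An enhancer is a stretch of DNA that controls transcription of a gene through the transcription factors bound to it, and a change in a binding site removes that input. Deaf1 is a DNA-binding protein first described as a cofactor of the homeotic factor Deformed. Schlank is a ceramide synthase that carries a homeodomain and has been tied to repression of lipase genes, and CG12236-PB is a zinc finger protein about which little is known. Changes of a pair of motifs act multiplicatively when the fold change of the double mutant equals the product of the single fold changes, and a departure from that product is called epistasis.

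The sites that could be read are printed here because the Deaf1 and Schlank steps turn on them. The design table gave the first 385 bases of the element, counted from 1 at the first base after the cloning site that follows the 8-base barcode. Within them, every construct with changed Deaf1 sites carried C38G, C194G and C307T, and every construct with a changed Schlank site carried C176G and T179G. No base was changed for CG12236-PB within these 385 bases, so the number and place of its sites could not be read. Any further changes past these bases, for Deaf1 too, could not be read. Capitals mark positions that differ between any of the constructs, and the genomic strand was not given in the sources used here. The middle window holds the Schlank site and a Deaf1 site, whose nearest changed positions were 15 bases apart.
ChIPCRM2847-D, positions 26 to 50: tgagctgcgaaaGgagagtttgtgg
ChIPCRM2847-WT, positions 26 to 50: tgagctgcgaaaCgagagtttgtgg
ChIPCRM2847-DS, positions 168 to 197: accgcgtcGacGaatcgctaaatttaGgag
ChIPCRM2847-D, positions 168 to 197: accgcgtcCacTaatcgctaaatttaGgag
ChIPCRM2847-WT, positions 168 to 197: accgcgtcCacTaatcgctaaatttaCgag
ChIPCRM2847-D, positions 295 to 319: ggcaacagaaacTgaaacaagggag
ChIPCRM2847-WT, positions 295 to 319: ggcaacagaaacCgaaacaagggag
All 3 changed Deaf1 bases that could be read were the C of a CGA in the wildtype element. A search of both strands for CGA (TCG on the other strand) found 14 in these bases of the wildtype. All 12 wildtype elements held 5 to 23 within their first 385 bases. The Schlank changes C176G and T179G themselves made new CGA and TCG matches in the middle window. Every construct with a changed Schlank site therefore differed in these matches too, and their part in the Schlank steps was not tested. The constructs also differed from each other in their flanking barcodes, and their part in the differences below was not tested.

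Activity was the share of RNA UMIs held by a tag divided by its share of DNA UMIs in the same collection, so that 1 equals the average of the pool and a value is relative to all other reporters in that population. A UMI is a random label of 8 bases that counts molecules rather than reads. Values were used where a tag had at least 65 DNA UMIs and was present in the RNA, which left 54 values of 19 tags in twi:CD2+ cells and 105 values of 22 tags in mef2:CD2- cells. Libraries held 317396 to 621449 DNA UMIs and 813922 to 1366066 RNA UMIs in twi:CD2+ cells, and 54038 to 248151 DNA UMIs and 560294 to 1201998 RNA UMIs in mef2:CD2- cells. The ChIPCRM2847 tags took 5.23 to 7.07% of the DNA and 0.548 to 0.986% of the RNA in twi:CD2+ cells, and 5.75 to 7.50% of the DNA and 1.01 to 1.38% of the RNA in mef2:CD2- cells. Among the 11 wildtype enhancers measured, ChIPCRM2847 ranked 3 from the lowest in both populations, at 0.221 against a wildtype median of 0.516 in twi:CD2+ cells and at 0.206 against 0.562 in mef2:CD2- cells.

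Some features of single tags bear on what follows. Of the 24 tags, 2 never reached the minimum, a D tag with at most 1 DNA UMI and a DS1 tag with at most 39. The DS tag caatgctctcccccaacttc, which passed in replicates 1 and 2 of mef2:CD2- cells only, had 7.79 and 8.46 DNA reads per UMI, at most 0.137 of the library median. It was the only one of 262 tags in the series whose DNA reads per UMI stayed under 33.3% of that median wherever it passed. Its activities of 0.746 and 0.964 were the highest ChIPCRM2847 values in this population, so fold changes and interactions that use it are given with and without it, while collection means and per-collection averages of DS in mef2:CD2- cells include it. The D1 tag agtctagtcagaagccagtt had 628 DNA UMIs but no RNA UMI in replicate 1 of twi:CD2+ cells, where a count of 0 allows an activity of up to 0.00217, and this value was left out as absent from the RNA.

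The first question was what each mutant did relative to the wildtype element. Mutation of the Deaf1 sites, of the CG12236-PB sites or of both lowered activity in both populations, to between 18.7 and 39.2% of wildtype. The 3 mutants that also lacked the Schlank site were not called different from wildtype, at 67.7 to 131%. Among twi:CD2+ cells 3 of the 6 mutants were called lower and 0 higher (adjusted p under 0.1 in a two-sided exact permutation test of mean ranks, adjusted by Benjamini-Hochberg over all 241 pairs of constructs that share an enhancer), where 17.9% of all mutants of all enhancers were called lower and 4.48% higher. The same mutants were called lower and 0 higher in mef2:CD2- cells (273 pairs), where 38.9% of all mutants were called lower and 9.72% higher.

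Without its Deaf1 sites the element had mean activities of 0.0451, 0.0512 and 0.0273 in replicates 1, 2 and 3 of twi:CD2+ cells, against 0.160, 0.329 and 0.173 for the wildtype. All 9 tag values of ChIPCRM2847-D, from 3 tags, lay below the lowest wildtype value. How often mutants of other enhancers separate in this way was not counted, here or below. Collection means of D in mef2:CD2- cells ran from 0.0254 to 0.0768 with a median of 0.0525, against 0.134 to 0.309 with a median of 0.220 for the wildtype. There, 12 of the 18 tag values of D lay below the lowest wildtype value. D averaged 0.0412 ± 0.0241 against 0.221 ± 0.165 for the wildtype in twi:CD2+ cells (SD, n = 9 values of 3 tags each), which gave a fold change of 0.187 and an adjusted p of 0.00112 by the exact permutation test. It averaged 0.0538 ± 0.0394 (n = 18 values) against 0.206 ± 0.0915 (n = 11) in mef2:CD2- cells, with a fold change of 0.261 and an adjusted p of 1.92e-05 by the same permutation test. D was the lower of the pair in 3 of 3 and in 6 of 6 collections.

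The wildtype mean rested unevenly on its 3 tags. Tag caggactgaattttagcaaa passed in all 9 collections and gave both the highest wildtype value of twi:CD2+ cells, 0.647 in replicate 2, and the highest of mef2:CD2- cells, 0.398 in replicate 5. The other two wildtype tags, gtgccttcagcgcaacatct and tgaaagggaagcacgttccg, lay between 0.125 and 0.248 in twi:CD2+ cells. They passed in 2 and 3 collections of mef2:CD2- cells, so that replicates 3, 4 and 6 rested on the first tag alone.

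Without its CG12236-PB sites the element had 0.0459, 0.0784 and 0.0580 in twi:CD2+ cells, and again all 9 tag values lay below every wildtype value. Its collection means in mef2:CD2- cells ran from 0.0498 to 0.138 with a median of 0.0767, and 5 of 14 tag values lay below the lowest wildtype value. The fold change over wildtype was 0.275 in twi:CD2+ cells (exact permutation test, adjusted p = 0.00112) and 0.392 in mef2:CD2- cells (exact permutation test, adjusted p = 0.000815). ChIPCRM2847-1 was below the wildtype in 3 of 3 and 6 of 6 collections.

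With both kinds of site changed, ChIPCRM2847-D1 had 0.0325, 0.123 and 0.0371 in twi:CD2+ cells and 0.0346 to 0.0816 with a median of 0.0573 in mef2:CD2- cells. Replicate 2 of twi:CD2+ cells was the high one, and there its tag gtaagatggcatatcattcc had 0.171. D1 had 0.291 times the wildtype activity in twi:CD2+ cells (adjusted p = 0.0125) and 0.276 times in mef2:CD2- cells (adjusted p = 1.37e-05, exact permutation tests). The twi:CD2+ call was lost without replicate 1 (fold change 0.319, adjusted p = 0.173, exact permutation test) and without replicate 3 (0.319, adjusted p = 0.142).

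The next question was what a second change added. Among steps of 1 motif over all enhancers, 16.7% were called lower and 7.84% higher in twi:CD2+ cells, and 26.7% lower and 12.1% higher in mef2:CD2- cells, and for ChIPCRM2847 2 of 9 were called lower and 3 higher in each population. The 2 called lower were the Deaf1 and the CG12236-PB step on the wildtype. Adding the CG12236-PB change to the Deaf1 mutant gave a D1 activity of 1.56 times that of D in twi:CD2+ cells (adjusted p = 0.675) and of 1.06 times in mef2:CD2- cells (adjusted p = 0.817, exact permutation tests). D1 was below D in 1 of 3 and 3 of 6 collections, so neither sign prevailed. Adding the Deaf1 change to the CG12236-PB mutant gave 1.06 times the activity of ChIPCRM2847-1 in twi:CD2+ cells (adjusted p = 0.991) and 0.704 times in mef2:CD2- cells (adjusted p = 0.202, exact permutation tests). D1 was below ChIPCRM2847-1 in 2 of 3 and 5 of 6 collections, with mean log2 ratios of -0.16 ± 0.71 and -0.57 ± 0.70 (SD). At both a minimum of 20 and of 200 DNA UMIs the step was called in mef2:CD2- cells, at 0.642 (adjusted p = 0.0927) and 0.636 times (adjusted p = 0.0976, exact permutation tests). It was also called there without tag cctagccg of ChIPCRM2847-1 (0.598, adjusted p = 0.0633) or tag agtctagt of D1 (0.614, adjusted p = 0.0988, exact permutation tests). Neither week alone gave a call, at 0.540 in the first (adjusted p = 0.286) and 0.862 in the second (adjusted p = 0.675, exact permutation tests). The ratio was 0.598 to 0.977 over all single tags left out and 0.615 to 0.852 over all single collections left out. Replicate 3 had a log2 ratio of -1.93.

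Had the changes acted multiplicatively, D1 would have averaged 0.0113 in twi:CD2+ cells and 0.0211 in the mef2:CD2- cells, against measured means of 0.0643 and 0.0568. In a linear model of log2 activity, the departure from the product was 2.56 ± 0.76 in twi:CD2+ cells (SE, 33 values, adjusted p = 0.00534, 100000 permutations) and 1.71 ± 0.54 in mef2:CD2- cells (SE, 62 values, adjusted p = 0.00604, 100000 permutations). A positive value means more activity than the product. This was 1 call of 3 interactions in each population, where 11.1% of all interactions of all enhancers in twi:CD2+ cells and 21.3% in the mef2:CD2- cells were called above 0, and 13.9% and 14.9% below 0. Taken per collection, the departure was 1.33, 3.34 and 2.02 in twi:CD2+ cells and 1.25 to 1.83 in mef2:CD2- cells, above 0 in 3 of 3 and 6 of 6. The twi:CD2+ value was 1.55 (adjusted p = 0.399, permutation test) when the tag without RNA in replicate 1 was counted as 0 rather than left out, which entered the log scale as 0.5 UMI. The mef2:CD2- value was 1.28 (adjusted p = 0.162, permutation test) without the wildtype tag caggactgaattttagcaaa. With 1 value per collection, exact sign-flip permutation tests gave adjusted p = 0.600 with 3 collections and 0.113 with 6, where the smallest unadjusted p they can give is 0.25 and 0.03125.

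The Schlank site was then compared on the 3 backgrounds that the files allowed. Its change raised activity on all 3 in both populations, by 2.33 to 5.66 times. All 3 Schlank steps were called higher in twi:CD2+ cells, where 26.3% of Schlank steps of all enhancers were called higher and 5.26% lower. All 3 were called higher in mef2:CD2- cells too, where 26.1% of Schlank steps were called higher and 13.0% lower. These shares include the ChIPCRM2847 steps themselves.

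On the Deaf1 mutant background, ChIPCRM2847-DS had 0.284, 0.160 and 0.228 in the 3 collections of twi:CD2+ cells, each above every collection mean of D. Its collection means in mef2:CD2- cells ran from 0.116 to 0.355 with a median of 0.251, above the highest of D, 0.0768. DS averaged 0.233 ± 0.149 (SD, n = 6 values of 3 tags) against 0.0412 ± 0.0241 (n = 9) for D in twi:CD2+ cells, 5.66 times as much, with an adjusted p of 0.00459 by the exact permutation test. The averages in mef2:CD2- cells were 0.269 ± 0.237 (n = 17 values of 4 tags) for DS against 0.0538 ± 0.0394 (n = 18) for D, 4.99 times as much, with an adjusted p of 3.74e-06 by the permutation test. Without the DS tag of few reads per UMI the mef2:CD2- ratio was 3.54 (adjusted p = 1.26e-05, exact permutation test). By week it was 8.85 in the first week, which holds that tag, and 2.90 in the second, both still called. When reads were counted in place of UMIs that tag had activities of 1.03 and 1.53, and what set its reads per UMI was not tested.

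On the CG12236-PB mutant background, ChIPCRM2847-S1 had 0.270, 0.349 and 0.137 in twi:CD2+ cells, all above the highest collection mean of ChIPCRM2847-1, 0.0784. Its collection means in mef2:CD2- cells ran from 0.189 to 0.374 with a median of 0.255, against at most 0.138 for ChIPCRM2847-1. S1 exceeded ChIPCRM2847-1 by 4.15 times in twi:CD2+ cells (adjusted p = 0.00268) and 3.34 times in mef2:CD2- cells (adjusted p = 8.21e-05, exact permutation tests). The 3 tags of S1 were not alike. Tag taagcatctgcattacagca had 0.510, 0.727 and 0.127 in twi:CD2+ cells and a median of 0.403 over all 9 collections, against 0.153 for gaggagaacgctcagagaaa and 0.145 for gtaccggtggtcggtccgtc. Without the first of these tags S1 exceeded ChIPCRM2847-1 by 2.48 times in twi:CD2+ cells, still called (adjusted p = 0.00963, exact permutation test).

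On the background with both other motifs changed, ChIPCRM2847-DS1 had 0.136, 0.192 and 0.121 in twi:CD2+ cells against 0.0325, 0.123 and 0.0371 for D1. Its collection means in mef2:CD2- cells ran from 0.111 to 0.185 with a median of 0.162, above the highest collection mean of D1, 0.0816. DS1 averaged 0.149 ± 0.0621 (SD, n = 6) against 0.0643 ± 0.0555 (n = 6) for D1 in twi:CD2+ cells, 2.33 times as much and at the edge of the threshold (adjusted p = 0.0989, exact permutation test). That call was lost with read counts in place of UMIs (adjusted p = 0.185), with a minimum of 200 DNA UMIs (0.220), with the permutation test run within collections (0.146), and without replicate 1, 2 or 3 (0.382, 0.123 and 0.364). The ratio stayed above 1 throughout, at 1.95, 3.68 and 2.11 without replicate 1, 2 and 3, 1.78 with read counts and 1.91 with 200 DNA UMIs. DS1 averaged 0.143 ± 0.0498 (n = 8) against 0.0568 ± 0.0367 (n = 19) in mef2:CD2- cells, 2.52 times as much, with an adjusted p of 0.000783 by the permutation test. DS1 rested mostly on tag accggcccgtctccccacct, which passed in all 9 collections. Its other tag, ggttcattcgacaaaaaaa, passed in 5 and had 0.112 to 0.587 of the library median of DNA reads per UMI.

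Per collection, the Schlank step was above 0 in 3 of 3 and 6 of 6 collections on each background. On the log2 scale it averaged 2.45 ± 0.73 on the Deaf1 background, 1.99 ± 0.67 on the CG12236-PB background and 1.47 ± 0.74 on the background of both in twi:CD2+ cells (SD, n = 3 collections). The averages in mef2:CD2- cells were 2.25 ± 0.97, 1.74 ± 0.47 and 1.50 ± 0.59 (SD, n = 6). The steps on the double and on the Deaf1 background were compared by the interaction of Schlank and CG12236-PB, which was -1.07 ± 0.80 in twi:CD2+ cells (SE, adjusted p = 0.393) and -0.90 ± 0.58 in mef2:CD2- cells (adjusted p = 0.263, permutation tests), or -0.63 without the DS tag of few reads per UMI (adjusted p = 0.475). It was below 0 in 3 of 3 and 5 of 6 collections. The interaction of Deaf1 and Schlank on the CG12236-PB background was -0.48 ± 0.75 in twi:CD2+ cells (adjusted p = 0.705) and -0.25 ± 0.49 in mef2:CD2- cells (adjusted p = 0.815, permutation tests). With no ChIPCRM2847-S, the Schlank step on the wildtype background and the interaction of all 3 motifs were not analysed here.

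The last comparison of motifs asked what the Deaf1 and CG12236-PB changes did once the Schlank site was gone. Of the 3 Deaf1 steps, 1 was called lower and 0 higher in each population, where 26.5% of Deaf1 steps of all enhancers in twi:CD2+ cells and 42.5% in the mef2:CD2- cells were called lower, and 0% and 2.5% higher. Of the 3 CG12236-PB steps, 1 was likewise called lower and 0 higher in each, where 22.7% and 26.1% over all enhancers were called lower, and 4.55% and 4.35% higher. The calls were the steps on the wildtype, and none came from a background without the Schlank site. The Deaf1 change on that background gave DS1 0.593 times the activity of S1 in twi:CD2+ cells (adjusted p = 0.614) and 0.530 times in mef2:CD2- cells (adjusted p = 0.171, exact permutation tests). DS1 was below S1 in 3 of 3 and 6 of 6 collections, with mean log2 ratios of -0.68 ± 0.43 and -0.81 ± 0.31 (SD). The CG12236-PB change on the background without Deaf1 and Schlank sites gave DS1 0.640 times the activity of DS in twi:CD2+ cells (adjusted p = 0.707) and 0.533 times in mef2:CD2- cells (adjusted p = 0.298, exact permutation tests), or 0.752 times there without the DS tag of few reads per UMI (adjusted p = 0.472). DS1 was below DS in 2 of 3 and 5 of 6 collections. When shallower tags were admitted (20 DNA UMIs or more), both steps were called in mef2:CD2- cells, at 0.478 times S1 (adjusted p = 0.0274) and 0.405 times DS (adjusted p = 0.0237, exact permutation tests). At the minimum of 65, DS1 was also called below S1 there without the S1 tag gaggagaa (0.491 times, adjusted p = 0.0871) or gtaccggt (0.469 times, adjusted p = 0.0959, exact permutation tests). The Conover-Iman test called it below S1 too (adjusted p = 0.0914). Without the DS tag attcgctc, DS1 was called below DS (0.459 times, adjusted p = 0.0332, exact permutation test). Without the S1 tag taagcatc, however, DS1 had 0.991 times the activity of S1 in twi:CD2+ cells (adjusted p = 0.921). In mef2:CD2- cells it then had 0.671 times (adjusted p = 0.653, exact permutation tests).

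Set against the wildtype element, DS had 106% of its activity in twi:CD2+ cells (adjusted p = 0.999) and 130% in mef2:CD2- cells (adjusted p = 0.934), and S1 had 114% (adjusted p = 0.986) and 131% (adjusted p = 0.742, exact permutation tests). Per collection the log2 ratio of DS to wildtype averaged 0.06 ± 0.98 in twi:CD2+ cells and 0.17 ± 0.76 in the mef2:CD2- cells (SD). That of S1 averaged 0.17 ± 0.55 and 0.31 ± 0.52 (SD), and each of these means was smaller than its SD. DS was above the wildtype in 2 of 3 and 2 of 6 collections, and S1 in 2 of 3 and 5 of 6. In twi:CD2+ cells the mean ranks of DS and S1 were slightly below that of the wildtype. The ratio of DS to wildtype in mef2:CD2- cells was 1.81 in the first week, 0.786 in the second, and 0.924 without the tag of few reads per UMI. DS1 had 67.7% of the wildtype activity in twi:CD2+ cells (adjusted p = 0.435) and 69.5% in mef2:CD2- cells (adjusted p = 0.348, exact permutation tests). It was below the wildtype in 3 of 3 and 6 of 6 collections, with mean log2 ratios of -0.51 ± 0.27 and -0.50 ± 0.28 (SD). It was called with a minimum of 20 DNA UMIs in mef2:CD2- cells, at 0.632 times wildtype (adjusted p = 0.0780, exact permutation test). Without the wildtype tag gtgccttc it was called there at 0.628 times (adjusted p = 0.0660, exact permutation test), which made 4 mutants called. Over all single tags left out this ratio was 0.628 to 0.945. A p above the threshold does not show that these mutants equal the wildtype.

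No ChIPCRM2847 construct was called different between the populations. The populations came from different driver crosses and different collection dates, which cannot be told apart from the sorted cells. The mef2:CD2- cells were close to the whole embryo, so they are not a tissue set against mesoderm. The lack of a call does not show equal activity. Of the 7 constructs, 0 were called between twi:CD2+ and mef2:CD2- cells (quasi-likelihood test of edgeR on UMI counts summed per construct, adjusted p under 0.05), 0 had an unadjusted p under 0.05, and DESeq2 also called 0. Of all 90 constructs tested, edgeR called 1.11% higher and 2.22% lower in twi:CD2+ cells. The edgeR log2 ratios of twi:CD2+ to mef2:CD2- cells ran from -0.59 ± 0.49 for DS to -0.14 ± 0.38 for D1 (SE). That of the wildtype was -0.22 ± 0.39. Without the tag of few reads per UMI that of DS was -0.05. These ratios came from scaled counts summed over tags and are not ratios of the mean activities. Mean activity was higher in twi:CD2+ cells for the wildtype (0.221 against 0.206), D1 (0.0643 against 0.0568) and DS1 (0.149 against 0.143). It was lower there for D, ChIPCRM2847-1, DS and S1. The mutant-over-wildtype log2 ratios were furthest apart for ChIPCRM2847-1, at -1.82 ± 0.25 in twi:CD2+ cells (SD, n = 3) against -1.43 ± 0.52 in mef2:CD2- cells (n = 6), a difference of -0.39 (unadjusted p = 0.262, adjusted p = 0.960, two-sided exact permutation test). Of the 6 mutants, 0 were called by this permutation test and 0 had an unadjusted p under 0.05, where 0% of the 66 effects of all enhancers were called. With 3 against 6 collections the smallest p this exact test can give is 0.0119.

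Values of a tag varied between collections by more than the median counting error in every construct. The median counting error of a value was 0.0548 to 0.181 on the log2 scale, whereas the SD of a tag between collections was 0.17 to 1.27. The SD of tag means within a construct was 0.07 to 1.20, and it was under the counting error, 0.101, for D1 in twi:CD2+ cells only. The mean log2 activities of the 19 tags measured in both populations correlated with r = 0.78 and rho = 0.75, a description over tags of the same 7 constructs and fly pool. Because each tag recurs in several collections of the same pool, the values behind the p-values are not fully independent. The tests that pooled them ignored tag and collection, so their p-values do not measure spread over tags or over days. With 1 value per tag, 2 to 4 tags per construct left 0 mutants and 0 steps called in either population by the exact permutation test, which has few possible arrangements of so few tags.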

How the data were processed

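The deposited tables list, for each library, a construct, its tag, a UMI count and a read count, all raw counts with no normalization. The authors trimmed reads with cutadapt 1.14 and matched tags to constructs with Bowtie (version not given in the sources used here), per the labels and the submitters' processing notes, which also name R 3.5.1. The reads were not processed again. RNA and DNA libraries of a collection were paired by their labels, and their tag deviations correlated in every collection (r = 0.42 to 0.57 over 167 tags). Activities, exact rank permutation tests and interaction models used pandas 2.3.3, scipy 1.17.1 and numpy 2.4.6 under Python 3.11.15. The count test used edgeR 4.0.16 with TMM factors, constructs with at least 10 UMIs in every library and a term per collection, with DESeq2 1.42.0 as an alternative, in R 4.3.3. Constructs needed at least 4 values in a population. The threshold was an adjusted p of 0.1 for permutation tests and 0.05 for edgeR. Every construct and tag of the enhancer was eligible to be named, and other constructs entered only as shares of calls. The members and lists were chosen with earlier results of these data known. Floors and counting errors cover counting error only. Alternatives changed the DNA UMI minimum, the unit counted, the adjustment, the block and the tags, weeks and collections used.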

Additional observations from a re-analysis of the deposited data

Results flagged for a closer look

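Of 19 sets of 6 collections examined, 1 had a collection that stood apart from the others, where chance alone marks about 1 in 20. It was the ratio of D1 to ChIPCRM2847-1 in replicate 3 of mef2:CD2- cells, at -1.93 on the log2 scale. In that collection D1 had 0.0364 and ChIPCRM2847-1 had its highest mean, 0.138 over 2 tags.

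The RNA libraries of mef2:CD2- cells held more UMIs than the DNA libraries, so RNA and DNA counts of a tag are not on the same scale. With that limit, 2 tags gave more than 3 RNA UMIs in a collection of mef2:CD2- cells in which no DNA UMI was counted. These were the DS1 tag ggttcattcgacaaaaaaa in replicate 4, with 4 RNA UMIs, and the wildtype tag tgaaagggaagcacgttccg in replicate 6, with 10 RNA UMIs.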

How the results depend on the processing

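Of the 9 steps of 1 motif, 5 were called in each population, and 3 of 6 mutants and 1 of 3 interactions. The count of steps called was 3 of 7 in twi:CD2+ cells without the DS tag cggataaa, which left DS over D untested, and 8 in mef2:CD2- cells with a minimum of 20 DNA UMIs, where 2 interactions were called, the second that of CG12236-PB and Schlank at -1.32. With tag means as units it was 0 in both populations, as was the count of mutants called. So few tags per construct leave that test few possible arrangements, so little can be concluded from these counts. No interaction was called (0) with 1 value per collection. In twi:CD2+ cells 0 interactions were called with tags absent from the RNA counted as 0, or where the D1 tag acgattat or gtaagatg was left out so that D1 had too few values to be fitted. In mef2:CD2- cells 0 were called without the wildtype tag caggactg. Leaving out 1 collection gave 2 to 3 mutants, 3 to 4 steps (the 3 of 7 tested, without replicate 1) and 1 interaction called in twi:CD2+ cells, 3 mutants, 5 steps and 1 interaction in mef2:CD2- cells, and 0 population differences.

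With the replicate block (tests within collections, or a term per collection), 3 mutants, 4 steps and 1 interaction were called in twi:CD2+ cells and 3, 5 and 1 in mef2:CD2- cells, with no other call changed. edgeR with no replicate block called 0 of 7 constructs. The edgeR fit without the tag of few reads per UMI, chosen after seeing the data, also called 0.

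Some steps that were not called changed sign, and stayed uncalled. In twi:CD2+ cells DS over wildtype was 0.827 at a minimum of 200 DNA UMIs, 0.996 and 0.830 without the DS tags attcgctc and cattctat, 0.957 and 0.951 without the wildtype tags gtgccttc and tgaaaggg, and 0.960 to 1.62 without 1 collection. There D1 over ChIPCRM2847-1 was 0.907 with tags absent from the RNA as 0, 0.906 without tag gctcgagg, and 0.670 to 1.25 without 1 collection. D1 over D was 0.961 to 2.04 and S1 over wildtype 0.968 to 1.27 without 1 collection, and S1 over wildtype was 0.684 without tag taagcatc. In mef2:CD2- cells DS over wildtype was 0.799 at 200 DNA UMIs, 0.786 in the second week and 0.924 without tag caatgctc. There D1 over D was 0.996 at 200 DNA UMIs, 0.929 in the second week, 0.992, 0.922 and 0.897 without tags acgattat, agtctagt and gctataga, and 0.972 to 1.18 without 1 collection. The interaction of Deaf1 and Schlank was 0.54 with tags absent from the RNA as 0 in twi:CD2+ cells. For mef2:CD2- cells it was 0.21 at 200 DNA UMIs, 0.16 with read counts, 0.0536 in the first week, and 0.0812 and 0.12 without tags ggttcatt and taagcatc. The edgeR log2 ratio of twi:CD2+ to mef2:CD2- cells without 1 collection was -0.39 to 0.0525 for D, -0.57 to 0.12 for D1 and -0.59 to 0.0346 for S1, and 0.18 for D with the first mef2:CD2- week alone. The causes were not tested. The DNA libraries of mef2:CD2- cells were the shallowest, and median counting errors there were 0.0745 to 0.181 on the log2 scale.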
